A study of Mus musculus with 5 samples.

Results

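Endothelial cells are held together, and recognised by blood cells, through a set of proteins at their junctions and on their surface. The chromatin at 10 mouse genes of this kind (Cdh5, Pecam1, Esam, Icam2, Mcam, Cldn5, Emcn, Cd34, Eng and Ramp2) was followed through blood cell differentiation, out of 21774 protein-coding genes with a transcription start site (TSS) in RefSeq. The genes were taken by symbol, as named genes of endothelial junctions and surface, and no threshold on these data entered the rule. A DNaseI hypersensitive site (DHS), a stretch of chromatin open to cutting by DNase I, was called a promoter site of a gene if it came within 1 kb of any of its TSS. A DHS was called linked to a gene if it was a promoter site, lay inside the gene, or lay up to 100 kb from its TSS with that gene as the nearest protein-coding one. By this rule 101 of 135173 listed DHSs were linked to the 10 genes.

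DNaseI-seq was carried out on 5 populations sorted from differentiating mouse embryonic stem (ES) cells, all derived from a single ES cell line of strain 129 that carries GFP under control of the mesodermal gene Brachyury (Bry). Mesoderm (MES) was sorted as Bry:GFP+ cells lacking Flk1, and hemangioblasts (HB), a precursor of blood and endothelium, as Bry:GFP+ cells bearing it. Hemogenic endothelium (HE), the endothelial cells from which blood arises, was Tie2+ and cKit+ without CD41, hematopoietic progenitors (HP) were CD41+, and macrophages (MAC), grown from CD41+ cells, were CD11b+. All stages arose in culture from the same line, with cytokines added for the steps from Flk1+ cells to HE, HP and MAC, so stage and culture conditions cannot be told apart. Each stage is 1 list of DHSs (the MAC label names 2 replicates together), so no difference can be set against replicate error and no test was run. The lists carry intervals without heights or counts. A gene without a DHS is therefore one for which the list has no entry, and closed chromatin cannot be inferred from it.

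The lists held 21949 DHSs in MES, 24729 in HB and 33305 in HE, then 17734 in HP and 37456 in MAC, with median widths of 800, 900, 1200, 900 and 600 bp. Of 6 endothelium markers, all 6 had a promoter site in HE, against 0 in MES, 2 in HB, 3 in HP and 0 in MAC. Cdh5 and Pecam1 are among those markers. Of 6 mesoderm markers, 6 had a promoter site in MES, 6 in HB and 5 still in HE. Of 4 hemangioblast markers, 3 had one in MES, 4 in each of HB, HE and HP, and 3 in MAC, so they did not set HB apart. Of 5 macrophage markers, 4 had one in MAC. The progenitor markers did not set HP apart either, since 1 of 5 had a promoter site there, against 2 in HE and 3 in MAC. The part that other cells in a sort play in the values below was not tested.

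Adherens junctions join endothelial cells through VE-cadherin (Cdh5), and tight junctions seal the cleft between them through claudins. Adhesion molecules of the immunoglobulin family (Pecam1, Esam, Icam2 and Mcam) and sialomucins (Emcn and Cd34) cover borders and the luminal face. Several of these proteins, Cd34 and Pecam1 among them, are also carried by early blood cells, and endothelial identity is lost as hemogenic endothelium turns into blood.

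Promoter sites at these genes were concentrated in HE. In MES 2 of 10 genes had a promoter site (Cldn5 and Mcam), and in HB 3 (those and Ramp2). In HE 8 of 10 did, all but Esam and Emcn. In HP the number was 3 (Pecam1, Mcam and Icam2), and in MAC 2 (Eng and Icam2). Over all protein-coding genes the share was also highest in HE but varied less, with 55.5% in MES, 57.1% in HB and 59.9% in HE, then 48.6% in HP and 48.7% in MAC. By count the 10 genes were thus below the share of all genes in 4 stages and above it in HE. No interval is given for these shares of 10 genes, and whether they differ beyond counting error was not tested.

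**Figure D1:**
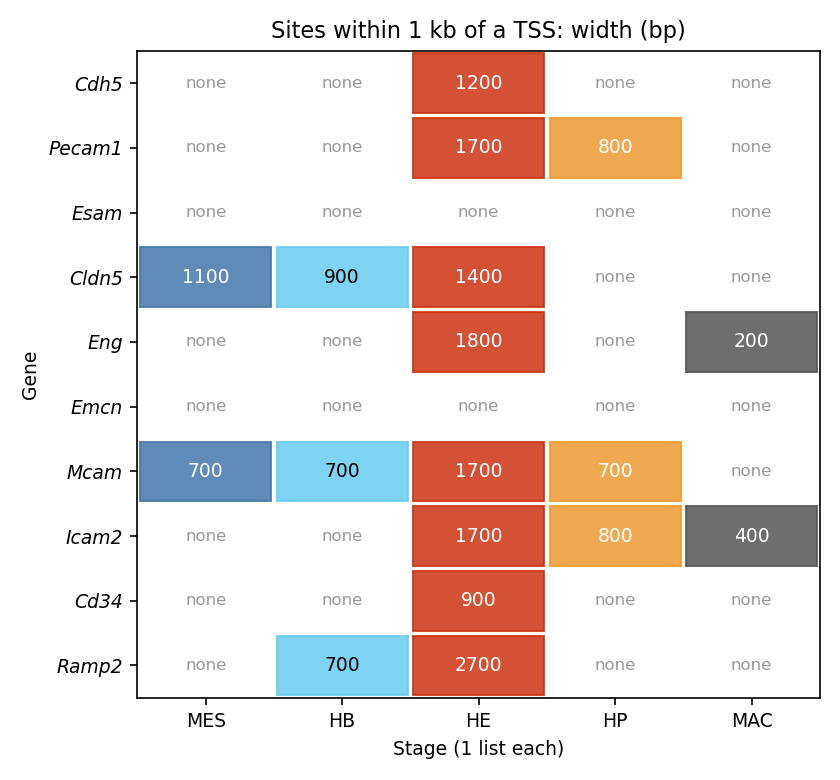
Promoter sites of the 10 genes (rows) by stage (columns, 1 list each). A filled cell gives the width in bp of the DHS within 1 kb of a TSS, and "none" means that no DHS was listed there. The HE column is filled for 8 genes and each other column for 2 or 3.

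A promoter site present in HE and absent from both MES and HB was found for 5 of the 10 genes (Cdh5, Pecam1, Eng, Icam2 and Cd34), against 4.53% of all protein-coding genes. Of these, Cdh5 and Cd34 had a promoter site in HE only, a pattern of 3.03% of genes. Among the 17734 widest HE DHSs, as many as the HP list holds, neither was present, while 6 of the 10 genes still had a promoter site. The share of all genes in that reduced list is not given. The Cdh5 site, at 1200 bp, has the narrowest width kept, and position decided which of the 2341 HE DHSs of that width were among the 2088 kept. With a reach of 2 kb the pattern of Cdh5 was HE, HP and MAC. Absence from the list of the next stage was as frequent, since 5 of 10 (Cdh5, Cldn5, Eng, Cd34 and Ramp2) had a promoter site in HE and none in HP, against 12.0% of all genes. A promoter open throughout, in all 5 stages, was seen at none of the 10, but at 42.0% of genes. Esam and Emcn had none in any stage, as did 34.3% of genes.

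Linked DHSs were also most numerous in HE, but here MAC came next by count, and HP by share of the list. The 10 genes had 10 linked DHSs in MES and 12 in HB, 40 in HE, then 14 in HP and 25 in MAC. As a share of each list this was 0.0456% in MES and 0.0485% in HB, 0.120% in HE (95% Wilson interval 0.0882 to 0.163%), 0.0789% in HP and 0.0667% in MAC (0.0452 to 0.0985%). In HP the interval was 0.0470 to 0.132%. These intervals cover counting error only. The mean per gene was 1.0, 1.2, 4.0, 1.4 and 2.5 over the 10 genes, and 1.09, 1.20, 1.59, 0.891 and 1.78 over all protein-coding genes. By these means the 10 genes stood near an average gene in MES and HB, and above it in HE, HP and MAC, most so in HE. The means carry no interval, so the smaller excesses in HP and MAC were not set against counting error.

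More linked DHSs in HE than in any other stage were counted at 7 genes (Cdh5, Pecam1, Esam, Cldn5, Eng, Cd34 and Ramp2), as at 12.6% of all genes. HE exceeded HB at all 10, against 28.8% of all genes, and HP fell below HE at all 10, against 37.1%. The lists differ in length, and a longer list gives more linked DHSs. When each list was reduced to its 17734 widest DHSs, the length of the HP list, the linked counts were 8 in MES and 10 in HB, 23 in HE, then 14 in HP and 12 in MAC, and HE was still the highest. The narrowest width kept ran from 100 bp in HP to 1200 bp in HE. Counts over all protein-coding genes are not given for the reduced lists, so whether this order is particular to the 10 genes was not tested.

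**Figure D2:**
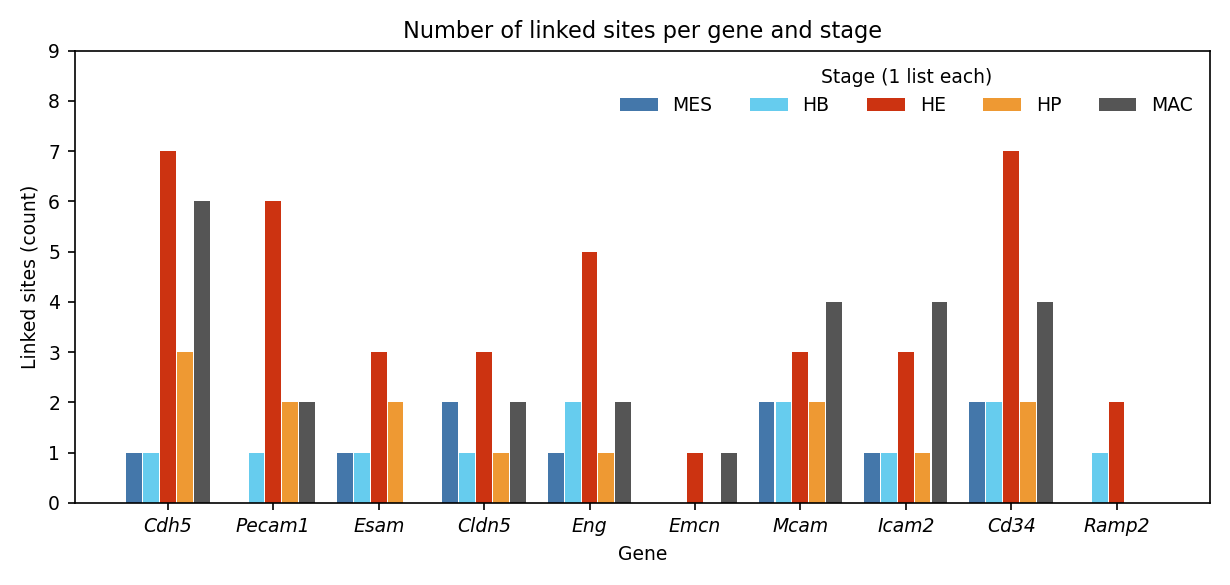
Number of linked DHSs (vertical axis) for each of the 10 genes (horizontal axis), with 1 bar per stage and no error bar because each stage is 1 list. Cdh5 and Cd34 reach 7 in HE, and Emcn has 1 in HE, 1 in MAC and none elsewhere.

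DHSs were then merged across stages as windows of 500 bp, which gave 55 regions at the 10 genes out of 68846. A region counted as open in the stages whose DHSs it contained. In HE 40 of 55 regions were open (72.7%, interval 59.8 to 82.7%), against 48.4% of all regions. Regions open in HE only numbered 16 (29.1%, interval 18.8 to 42.1%), against 17.1%, and those open in MAC only 12 (21.8%, interval 12.9 to 34.4%), against 31.0%. When the deposited intervals themselves were merged, 52 regions remained, of which 14 were open in HE only. In lists reduced to the 17734 widest DHSs, 23 of 35 regions were open in HE (65.7%, interval 49.2 to 79.2%), against 44.5% of all regions, and 8 in HE only (22.9%, interval 12.1 to 39.0%), against 10.6%. Open in all 5 stages of the full lists were 3 regions (5.45%, interval 1.87 to 14.9%), against 13.2%. The pair of HE and MAC alone held 5 regions (9.09%), against 3.48%, and the pair of HE and HP alone held 4 (7.27%), against 2.15%.

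The steps between stages were uneven. Here opened and closed mean only that an entry was gained or missing in the list of the next stage. From MES to HB 8 of 10 open regions were kept (80.0%), against 81.5% of all regions, and 4 opened. From HB to HE 10 of 12 were kept (83.3%, interval 55.2 to 95.3%), against 63.7% of all regions open in HB, and 30 opened. The Ramp2 promoter is counted among both the closed and the opened, since its HB and HE intervals overlap but their middles are too far apart for the windows to merge. From HE to HP no region opened at these genes, 14 were kept and 26 closed, so that 35.0% were kept (interval 22.1 to 50.5%), against 42.9% of all regions. All 14 regions open in HP were thus already open in HE (interval 78.5 to 100%). Over the genome 80.5% of HP regions were, a value within that interval. In the last step, to MAC, 18 regions opened, 7 closed and 7 of the 14 in HP remained open (50.0%, interval 26.8 to 73.2%), against 66.2% of all regions. In MAC 13 of 25 open regions were also open in HE (52.0%, interval 33.5 to 70.0%), against 37.8% of all MAC regions.

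Width is the only measure that a deposited interval carries. In HE 21 of the 40 linked DHSs were wider than the median of their list and 15 narrower. In HP 12 of 14 were narrower than the list's median, and in MES 8 of 10. At the 14 regions shared by HE and HP the HE interval was wider at 13 (92.9%), against 95.6% of all regions shared by these stages, and ranked higher within its own list at 12 (85.7%), against 72.6%. It was wider at all 13 regions shared with MAC, all 8 shared with MES and all 10 shared with HB, against 94.1%, 93.7% and 86.6% of all such regions. It ranked higher within its list at 7 of those shared with MAC (53.8%, against 44.4%), 6 of those with MES (75.0%, against 56.9%) and 8 of those with HB (80.0%, against 58.9%). Wider intervals in HE were thus general to the lists. Intervals that overlap but whose windows were not merged, as at Eng, Icam2 and Ramp2, are left out of these counts, and the pair of HE and MAC at Icam2 is equal in width.

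**Figure D3:**
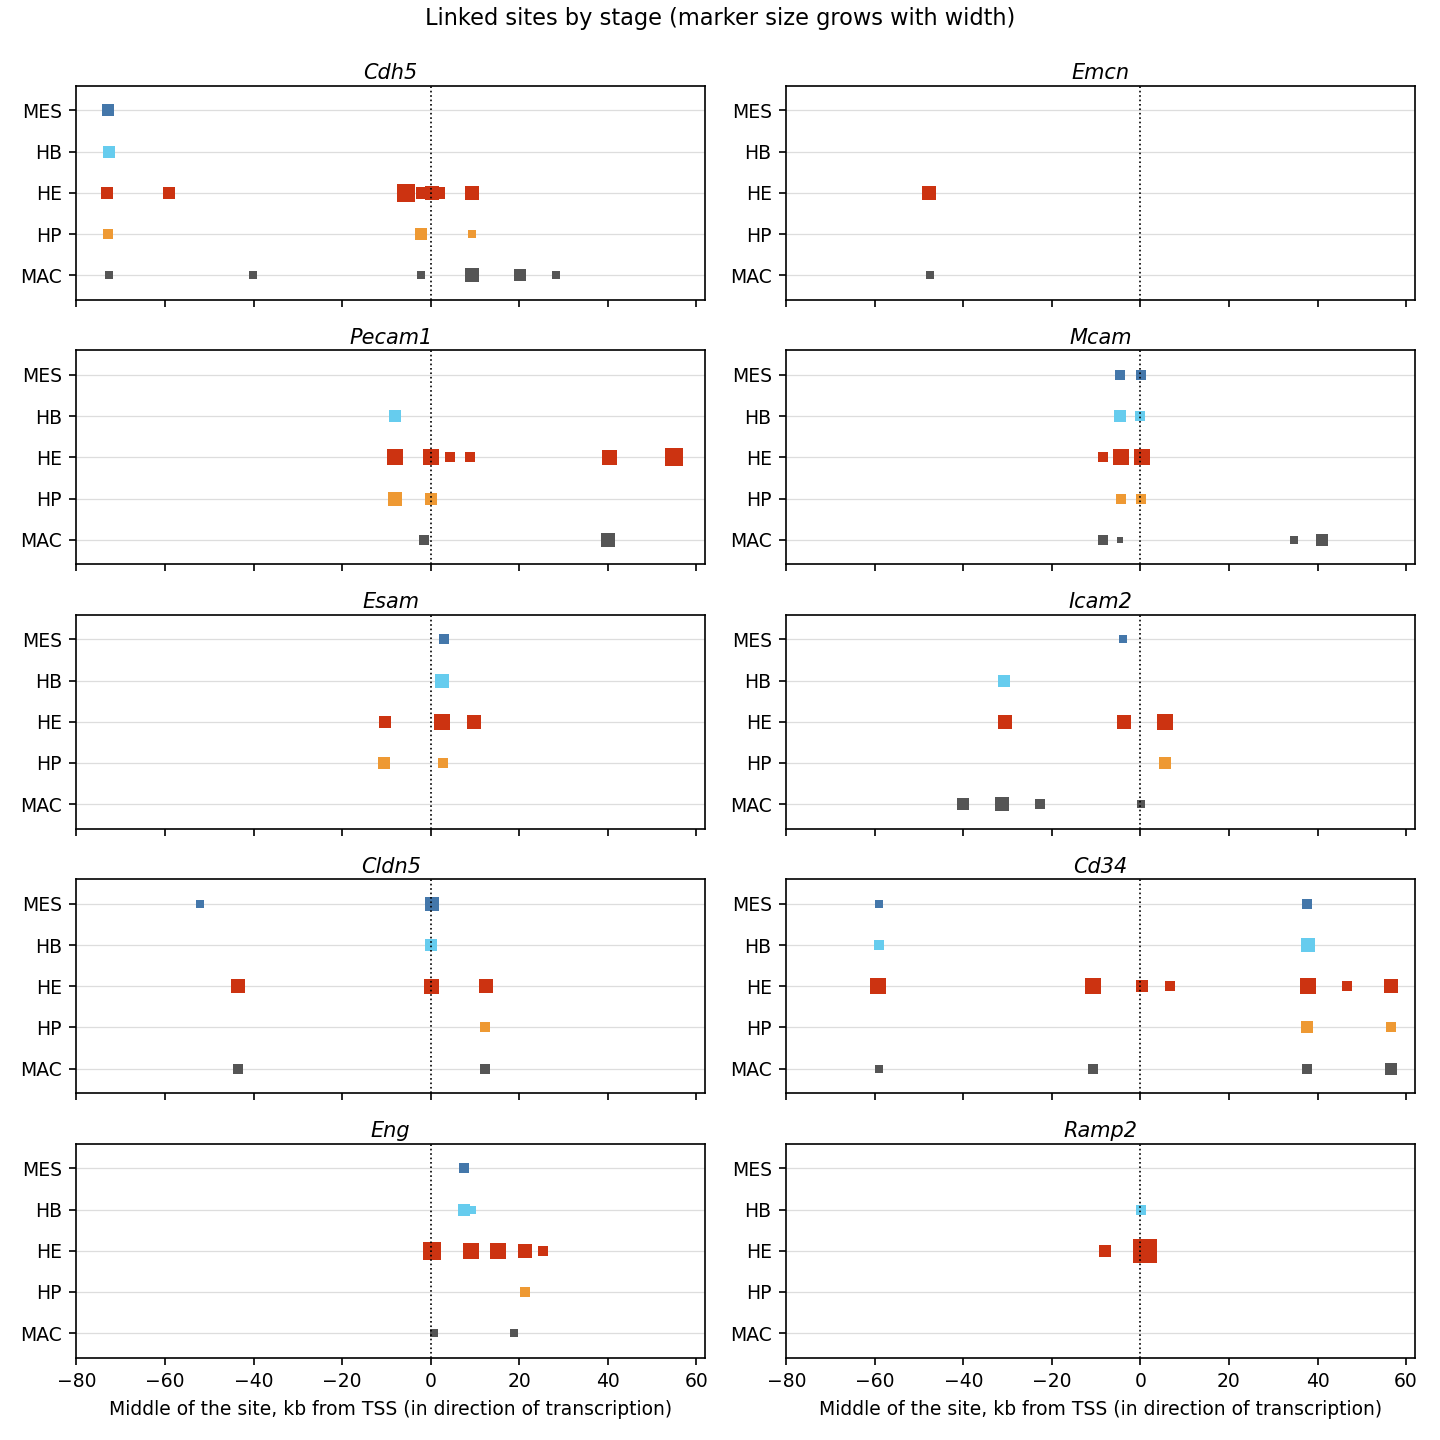
Linked DHSs at each gene by stage, placed by the distance of their middle from the TSS in kb along the direction of transcription (dotted line, the outermost annotated TSS). Each marker is 1 DHS and its size grows with the width of the interval. HE rows hold the most markers at 7 genes, and regions shared between stages line up vertically.

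Cdh5 encodes VE-cadherin, the cadherin of endothelial adherens junctions. It had 1 linked DHS in MES and 1 in HB, 7 in HE, then 3 in HP and 6 in MAC. Its promoter site was listed in HE only, at chr8:104101424-104102623 (mm10, 1200 bp), across the TSS and the start of the first intron. Outside HE the nearest DHS of any kind lay 44.7 kb from a TSS in MES and 44.4 kb in HB, 1.67 kb in HP and 1.99 kb in MAC. In HE several DHSs flanked the TSS. The widest, 1800 bp at chr8:104095224-104097023, lay 5.49 kb upstream in an intron of the long non-coding RNA gene Gm29682, and was listed in HE only, as were DHSs 59.0 kb upstream (chr8:104042124-104043123) and 1.91 kb into the gene.

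Other Cdh5 regions outlasted HE. The regions 2.09 kb upstream and 9.40 kb into the gene were open in HE, HP and MAC. The latter measured 1300 bp in HE (chr8:104110324-104111623), 400 bp in HP and 1100 bp in MAC, where it was wider than 90.4% of the list. MAC also had DHSs of its own 20.2 and 28.3 kb into the gene, without a promoter site. The region open in all 5 stages lay farthest away, 72.9 kb upstream in an intron of the long non-coding RNA gene Gm32728 (chr8:104028124-104029123 in HE).

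Pecam1 encodes CD31, an adhesion molecule of endothelial borders that is also carried by platelets and leukocytes. Its linked DHSs numbered 6 in HE, against 0 in MES and 1 in HB before it and 2 in HP and 2 in MAC after it. A promoter site was listed in HE, 1700 bp wide at chr11:106714311-106716010, and in HP, 800 bp wide within the same interval. This pattern is shared by 72 protein-coding genes, or 0.331%. An upstream region was listed a stage earlier than the promoter. This region, 7.98 kb upstream, was open in HB (1000 bp), HE (1500 bp, chr11:106722511-106724010) and HP (1100 bp), and was the only linked DHS of the gene in HB.

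Within the Pecam1 gene, HE had DHSs 4.42 kb (chr11:106710511-106711210) and 8.87 kb (chr11:106706111-106706710) from the TSS, and the widest, of 1800 bp, 55.1 kb from it (chr11:106659311-106661110). These 3 were listed in HE only. A further intronic region, 40.1 kb in, was shared by HE (1400 bp) and MAC (1100 bp). MAC had no promoter site, and its DHS of 600 bp lay 1.49 kb upstream, with its edge 1.19 kb from the TSS.

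The sequences below come from DHSs beyond the promoter at these junction genes. Shown are the central 200 bp of the HE-only DHS upstream of Cdh5 (chr8:104096024-104096223, plus strand), of the widest HE-only DHS in Pecam1 (chr11:106660111-106660310, minus strand, that of the gene), and of the Pecam1 DHS that was listed in HB, HE and HP (chr11:106723161-106723360, minus strand). The last was chosen after its values were seen. All are 5′ to 3′ from the mm10 reference, which is of strain C57BL/6J and not of the strain of the cells. Capitals mark the letters AGATAA, bound by GATA factors, and CGGAAG or AGGAAG, bound by ETS factors, on either strand.
Cdh5 upstream: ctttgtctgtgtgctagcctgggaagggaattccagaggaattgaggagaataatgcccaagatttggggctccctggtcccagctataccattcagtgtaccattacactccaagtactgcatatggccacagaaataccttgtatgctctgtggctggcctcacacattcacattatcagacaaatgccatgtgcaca
Pecam1 intron: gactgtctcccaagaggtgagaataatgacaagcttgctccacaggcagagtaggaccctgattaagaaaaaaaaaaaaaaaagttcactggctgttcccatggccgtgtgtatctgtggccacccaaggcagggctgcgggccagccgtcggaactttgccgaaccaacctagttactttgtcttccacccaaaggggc
Pecam1 upstream: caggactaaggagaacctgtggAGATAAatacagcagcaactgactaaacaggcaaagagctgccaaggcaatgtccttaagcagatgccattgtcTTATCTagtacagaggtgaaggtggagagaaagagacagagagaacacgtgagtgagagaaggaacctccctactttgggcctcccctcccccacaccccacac
The first and second sequences held neither set of letters. The Pecam1 upstream sequence held the GATA letters at 2 places, 1 on each strand. Over all HE DHSs, 10.9% held the GATA letters and 41.5% the ETS letters in their central 200 bp.

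Esam encodes an adhesion molecule of endothelial tight junctions and platelets. It had 1 linked DHS in MES and 1 in HB, 3 in HE, then 2 in HP and 0 in MAC. Its promoter had no DHS within 1 kb in any stage, and the nearest edge was 1.71 kb away in HE, 2.11 kb in HB, 2.44 kb in HP, 2.71 kb in MES and 12.6 kb in MAC. The gene was nevertheless open in its first part. A region 2.79 kb into the gene, in an intron, was open in MES (600 bp), HB (1100 bp), HE (1700 bp, chr9:37529801-37531500) and HP (600 bp). HE and HP shared a region 10.4 kb upstream in an intron of Msantd2. The HE-only DHS 9.71 kb downstream (chr9:37537201-37538400) lay over an untranslated exon of Esam and also came within 1 kb of a TSS of the neighbouring gene Vsig2.

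Icam2 encodes a ligand of leukocyte integrins that endothelial cells carry at rest. Its linked DHSs numbered 3 in HE, against 1 in MES and 1 in HB before it and 1 in HP and 4 in MAC after it. Promoter sites were listed in HE (1700 bp, chr11:106381811-106383510), HP (800 bp, chr11:106382164-106382963) and MAC (400 bp, chr11:106387867-106388266), but not at the same start. The HE and HP sites covered the curated TSS at chr11:106382781, and the MAC site a TSS at chr11:106388139 that is annotated by prediction alone. With curated starts only, the pattern was HE and HP, as at Pecam1. Distances at this gene are measured from the predicted start, which lies upstream of the curated one. Beyond the promoter, MAC had DHSs 22.6, 31.3 and 40.1 kb upstream, all in introns of Ern1. The DHS at 31.3 kb (1300 bp, chr11:106418767-106420066) overlaps the interval of HE (1300 bp, chr11:106418211-106419510) and that of HB (800 bp, chr11:106418507-106419306) in the region 30.7 kb upstream, but its window was not merged with theirs.

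Mcam encodes CD146, an adhesion molecule of vessels that is made outside endothelium too. It had 2 linked DHSs in MES and 2 in HB, 3 in HE, then 2 in HP and 4 in MAC. The promoter site was 700 bp wide in MES, HB and HP and 1700 bp in HE (chr9:44134101-44135800), with none in MAC. This was the broadest promoter pattern among the 10 genes, shared by 3.81% of protein-coding genes. A region 4.46 kb upstream was open in all 5 stages, at 600 bp in MES and HP, 900 bp in HB, 1700 bp in HE (chr9:44129501-44131200) and 100 bp in MAC. The MAC-only DHSs of this gene, 34.6 and 41.1 kb downstream, lay in introns of Cbl.

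Cldn5 encodes claudin-5, the main claudin of endothelial tight junctions. Its linked DHSs numbered 3 in HE, against 2 in MES and 1 in HB before it and 1 in HP and 2 in MAC after it. Its promoter site was listed in MES (1100 bp), HB (900 bp) and HE (1400 bp, chr16:18776319-18777718) and absent from HP and MAC. In contrast to Cdh5 and Pecam1, the promoter was therefore already open in mesoderm. In HP and MAC the nearest DHS lay 12.1 kb away, in a region shared by HE (1200 bp, chr16:18788719-18789918), HP (600 bp) and MAC (600 bp) in an intron of Cdc45. HE and MAC also shared a region 43.5 kb upstream.

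Emcn encodes endomucin, a sialomucin of veins and capillaries. It had 0 linked DHSs in MES and 0 in HB, 1 in HE, then 0 in HP and 1 in MAC, the fewest of the 10 genes. No promoter site was listed in any stage. Its single region lay 47.7 kb upstream in an intron of the long non-coding RNA gene Gm567, and measured 1300 bp in HE and 400 bp in MAC. The nearest DHS in the other stages was 190 kb away in HP, 199 kb in MES and 282 kb in HB.

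Cd34 encodes the sialomucin by which both vessels and blood progenitors are sorted. Its linked DHSs numbered 7 in HE, against 2 in MES and 2 in HB before it and 2 in HP and 4 in MAC after it. The promoter site was listed in HE only (chr1:194938641-194939540), and at 900 bp it was narrower than most HE DHSs, with 24.1% of the list narrower still. No promoter site was listed in HP, where the nearest DHS was 37.3 kb away. Of the other regions, those 6.77 kb (chr1:194945241-194945940) and 46.7 kb downstream of the TSS were also HE only.

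More distant Cd34 regions were shared between stages. The region 37.8 kb downstream, in an exon of Gm16897, was open in all 5 stages (700, 1300, 1600, 800 and 600 bp from MES to MAC, chr1:194975941-194977540 in HE). The region 59.2 kb upstream was open in MES, HB, HE (1700 bp, chr1:194878541-194880240) and MAC, and the region 56.5 kb downstream in HE (1300 bp, chr1:194994641-194995940), HP (700 bp) and MAC (800 bp). Both HP regions of this gene lay downstream and were also open in HE and MAC.

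Eng encodes endoglin, a co-receptor for ligands of the TGF-beta and BMP family. It had 1 linked DHS in MES and 2 in HB, 5 in HE, then 1 in HP and 2 in MAC. In HE the promoter site was 1800 bp wide (chr2:32646070-32647869), wider than 89.1% of the list. The promoter site of MAC was 200 bp wide (chr2:32647325-32647524), 0.730 kb from the TSS and inside the HE interval, and only 1.20% of the MAC list was narrower. The merged windows of the pair stayed separate because their middles are apart. Inside the gene, some intronic regions were shared by neighbouring stages and others were not. A region 7.50 kb in was open in MES (500 bp) and HB (900 bp) but not in HE, a region 9.31 kb in was open in HB (400 bp) and HE (1500 bp), and DHSs 15.2 kb (1700 bp, chr2:32660970-32662669) and 25.5 kb in (700 bp, chr2:32671770-32672469) were listed in HE only. The single HP region, 21.3 kb in, was shared with HE.

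Ramp2 encodes the protein that turns the calcitonin receptor-like receptor (Calcrl) into a receptor for adrenomedullin in vessels. Its linked DHSs numbered 2 in HE, against 0 in MES and 1 in HB before it and 0 in HP and 0 in MAC after it. In HB its promoter site was 700 bp wide and centred on the TSS (chr11:101246007-101246706). In HE the interval was 2700 bp (chr11:101246111-101248810), wider than 99.8% of the HE list, and it ran from the promoter beyond the end of the gene at 101248250. The other HE DHS was 800 bp wide, 8.12 kb upstream (chr11:101237811-101238610). In MES, HP and MAC the nearest DHS was 7.18, 7.13 and 7.03 kb away.

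Sequences were compared at the promoters whose stages differ most. RefSeq promoter sequences (GRCm38.p6) were matched for 5 of the 10 genes, Cd34, Eng, Emcn, Mcam and Cldn5, and not for Cdh5, Pecam1, Esam, Icam2 and Ramp2. Shown are the 250 bases before the TSS, plus strand, of Cd34 (HE only, chr1:194938571-194938820), Eng (HE and MAC, chr2:32646345-32646594) and Mcam (MES to HP, chr9:44134408-44134657), with the central 200 bp of the widest intronic HE-only DHS of Eng (chr2:32661720-32661919) and of the upstream HE DHS of Ramp2 (chr11:101238111-101238310). The Mcam promoter was added for contrast after its values were seen. Capitals mark the same ETS and GATA letters as above.
Cd34 promoter: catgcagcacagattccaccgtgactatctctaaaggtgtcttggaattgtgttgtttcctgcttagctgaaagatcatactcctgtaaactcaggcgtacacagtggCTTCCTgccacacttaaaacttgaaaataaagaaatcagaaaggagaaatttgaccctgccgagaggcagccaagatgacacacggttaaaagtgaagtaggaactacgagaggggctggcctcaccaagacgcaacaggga
Eng promoter: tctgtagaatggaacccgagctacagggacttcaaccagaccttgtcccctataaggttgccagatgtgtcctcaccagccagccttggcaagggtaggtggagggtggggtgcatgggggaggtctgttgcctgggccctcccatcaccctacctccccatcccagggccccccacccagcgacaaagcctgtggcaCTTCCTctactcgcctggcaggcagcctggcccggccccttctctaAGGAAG
Mcam promoter: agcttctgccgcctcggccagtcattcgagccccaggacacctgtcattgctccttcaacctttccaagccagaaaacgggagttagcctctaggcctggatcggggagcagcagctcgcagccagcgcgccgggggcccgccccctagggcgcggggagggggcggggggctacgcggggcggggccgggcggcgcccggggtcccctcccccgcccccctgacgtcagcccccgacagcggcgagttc
Eng intron: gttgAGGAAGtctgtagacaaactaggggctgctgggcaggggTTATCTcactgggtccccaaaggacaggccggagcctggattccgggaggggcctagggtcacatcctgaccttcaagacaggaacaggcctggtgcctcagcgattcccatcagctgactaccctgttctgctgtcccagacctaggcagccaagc
Ramp2 upstream: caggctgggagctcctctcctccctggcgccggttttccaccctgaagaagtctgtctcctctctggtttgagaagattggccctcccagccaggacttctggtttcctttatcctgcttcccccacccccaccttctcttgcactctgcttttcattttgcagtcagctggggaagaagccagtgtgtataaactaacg
The Cd34 promoter held the ETS letters once and the Eng promoter at 2 places. The Mcam promoter held none and was the richest in G and C, with 73.6% against 46.4% at Cd34 and 62.4% at Eng. Among all 32851 promoter sequences of this length, 39.2% held the ETS letters and 9.99% the GATA letters. The Eng intron held both, and the Ramp2 sequence neither. Of the promoters not printed, that of Emcn held the ETS letters at 2 places and had no DHS in any stage, and that of Cldn5 held none.

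The 55 regions were searched for the letters of 11 factor families in their central 500 bp on both strands. ETS letters, those of the family that includes the endothelial factors FLI1 and ERG, were in 38 of 55 regions (69.1%, interval 56.0 to 79.7%), and in 68.9% of all regions. Their share at these genes was thus that of the genome. SOX letters (ACAATG or ACAAAG), read by SOX17 and its relatives, were in 32 (58.2%, interval 45.0 to 70.3%), against 47.1%. Among the 40 regions open in HE they were in 26 (65.0%, interval 49.5 to 77.9%), against 44.8% of all HE regions, and among the 15 others in 6, or 40.0%, against 49.3%. Of the 11 families compared, this was the only one whose interval in HE regions left out the genome's value. Over all 55 regions the SOX interval held the genome's value. The intervals were not adjusted for 11 comparisons and count regions of the same gene as independent.

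The letters of the other families differed from the genome by less than the counting interval. AGATAA was in 16.4% of the 55 regions, against 23.0% of all regions. TGTGGT of RUNX factors was in 29.1%, against 33.2%. TAAACA of FOX factors was in 14.5%, against 24.0%, and AACAGGAA, a FOX and ETS site joined, in 9.09%, against 7.92%. CAGATG (E-box, 29.1% against 32.9%), TGANTCA (AP1, 21.8% against 22.7%), CATTCC (TEAD, 25.5% against 26.7%), CACCC (KLF, 65.5% against 73.8%) and AGAGGAAG (PU.1, 12.7% against 11.6%) were as near. The last contains AGGAAG, so each of its matches is also an ETS match. A match describes the letters and not a bound site.

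CpG-rich sequence was scarce at these genes. The term is used for regions whose middle 500 bp reach a GC share of 0.5 together with an observed to expected CpG ratio of 0.6. This held for 3 of 55 regions (5.45%), against 18.2% of all regions. They were the Mcam promoter, the Ramp2 promoter region of HB and the Cd34 region 37.8 kb downstream. The last was open in all 5 stages and the Mcam promoter in 4. The promoter regions of Cdh5, Pecam1, Eng, Icam2 and Cd34, open in HE and not before, were not CpG-rich.

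Other genes of the same structures were taken from fixed lists and counted by their promoter sites. Of 24 other endothelial surface or secreted proteins, 5 had a promoter site in MES and 9 in HB, 21 in HE, then 7 in HP and 5 in MAC, so that HE was again the highest. Among these Tek, Robo4, Clec14a, Ecscr, Nos3, Procr and Acvrl1 had one in HE only, as did Cdh5 and Cd34. Tie1, Plvap and Vwf had the pattern of Pecam1 (HE and HP), Flt4 and Thbd that of Eng (HE and MAC), and Flt1 and Cd93 that of Ramp2 (HB and HE). Egfl7 and Adgrl4 had that of Cldn5, and S1pr1 that of Mcam.

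Partners of the junction proteins mostly had promoter sites from mesoderm on. Of 8 adherens junction partners, which include the catenins that tie Cdh5 to actin, 7 had a promoter site in both MES and HB, 8 in HE, then 6 in HP and 5 in MAC. Of 8 tight junction partners, 8 had one in MES and 7 in HB, 8 in HE, then 5 in HP and 2 in MAC. Only Ptprb, which encodes a receptor phosphatase that binds VE-cadherin, had a promoter site in HE alone among both lists. Cdh2, Jam2 and Cgnl1 had the pattern of Cldn5, and Ctnna1, Tjp1, Jam3 and Cgn that of Mcam. The receptor that Ramp2 serves, Calcrl, had a promoter site in HB, HE and MAC, and Ramp1 had the pattern of Ramp2.

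**Figure D4:**
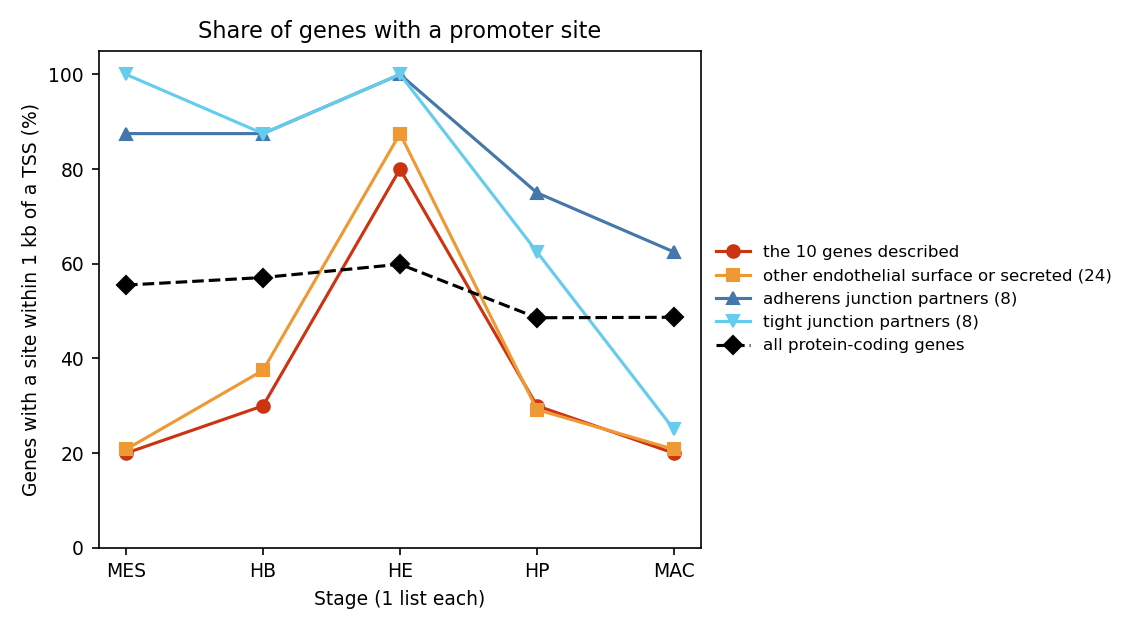
Share of genes with a DHS within 1 kb of a TSS (vertical axis, %) by stage (horizontal axis, 1 list each) for the 10 genes, for 3 other lists with their sizes in brackets, and for all protein-coding genes (dashed). The 10 genes and the other endothelial surface genes both peak in HE, at 80.0% and 87.5%, while the junction partners are already at 87.5% or more in MES.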

How the data were processed

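DNaseI-seq was done on 5 sorted stages, 1 list each. According to the study's methods, the authors trimmed reads with CutAdapt, aligned them to mm10 with Bowtie, kept unique reads, removed duplicates with Picard and called DHSs with DFilter in bins of 100 bp. HOMER is also named in the submitters' processing notes, and versions are not given in the sources used here. The deposited files give each DHS as a start and an end in bp, with no count, height or score. Depth is therefore unknown from these files, and read totals were not used here. Starts were read as 0-based and are printed 1-based.

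Positions were set against GRCm38.p6 (RefSeq), whose primary chromosomes are those of mm10. DHSs were set to 500 bp windows around their middle (the summit was not used here) and merged where they shared 125 bp or more, as in the study. Sites inside a gene counted for it whichever TSS was nearest. Backgrounds were computed by the same rule over all 21774 protein-coding genes or all merged regions, leaving 68842 for sequence. Scripts used Python 3.11.15, numpy 2.4.6, scipy 1.17.1 and matplotlib 3.10.9, and the linking and merging were tested on simulated data. All 10 genes were named. Of the other junction, surface and receptor lists, genes were named if their promoter pattern was HE only or that of a member with a promoter site. Calcrl, Ramp3 and Sele were named besides. Cell type markers were given as counts. Coordinates were given for promoter sites in HE and some in other stages. They were also given for at most 4 other DHSs per gene, those HE only or open in at least 3 stages, by width in HE. The overlapping intervals upstream of Icam2 were added to these. Sequences were taken from genes whose pattern was HE only or HE and 1 other stage, as a promoter or the widest HE DHS beyond it (that of Cd34 is not printed). The genes, lists and rules were chosen with earlier results of these data known. Alternatives were the promoter reach, the start sites, the linking reach and rule, the merging overlap and stricter lists by width.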

Additional observations from a re-analysis of the deposited data

How the results depend on the processing

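Each alternative was run on the counts it bears on, and 38 of 57 values stayed within 1.5 times. The other 19 follow. With only DHSs at or above the median width of their list, promoter sites numbered 1 in MES, 1 in HB, 0 in HP and 0 in MAC, and linked DHSs 2 in MES and 7 in HB, 25 in HE, then 2 in HP and 12 in MAC. With each list reduced to its 17734 widest DHSs, as many as HP has, promoter sites numbered 0 in MAC, linked DHSs 23 in HE and 12 in MAC, and merged regions 35, of which 23 were open in HE, 8 in HE only and 1 in all stages. MAC promoter sites numbered 1 with a reach of 100 bp, 4 with a reach of 2 kb and 1 with curated TSS only. HE kept the highest counts of promoter sites and linked DHSs under each alternative. Shares over all protein-coding genes are not given for the stricter lists by width. Ties at the narrowest width kept were decided by position, and with none or all of them the linked DHSs in HE numbered 21 or 25. Among single genes, Cdh5 and Cd34 lost their promoter site in the equal-length lists (Cdh5 by such a tie), Eng became HE only, Icam2 HE and HP, and Mcam lost HB, also by a tie. At the median width Pecam1, Eng, Mcam, Icam2 and Ramp2 became HE only and Cd34 lost its site. With a reach of 100 bp Eng became HE only, and with curated TSS Icam2 became HE and HP. At a reach of 2 kb, Cdh5 and Pecam1 became HE, HP and MAC, and Esam became HE. No paired analysis was possible because each stage is 1 list. With 1 list per stage and no depth in the deposited files (read totals were not used here), a difference between stages cannot be told apart from one in sequencing depth, digestion or calling.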

Other observations

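Adhesion molecules that endothelium carries on inflammation were looked at beside the 10 genes. Of 4 such genes, 1 had a promoter site in MES and in HB, 2 in HE, then 0 in HP and 1 in MAC. Vcam1, a ligand of leukocyte integrins, had a promoter site in HE only, with 2 linked DHSs in HE and 3 in MAC, and Sele, which encodes E-selectin, had no linked DHS in any stage. Of 4 genes of the calcitonin receptor family and its ligand, none had a promoter site in MES and 4 in HB, 3 in HE, then 2 in HP and 1 in MAC. The difference between HB and HE rests on Ramp3 alone, which had a promoter site in HB and HP. Linked DHSs were no fewer in HE than in HB at any of the 4.

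The consensus of CTCF, a factor at insulators, was added to the search after the regions had been seen. It was found in 2 of 55 regions (3.64%), against 3.28% of all regions. Both were Icam2 regions, 30.7 and 3.85 kb upstream of its predicted start.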
